A study of Rattus norvegicus with 11 samples.

Results

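The metabotropic glutamate receptors were followed in the medial prefrontal cortex of rats with a history of heroin self-administration. They were taken as every non-control probe that the array names Grm2, Grm3, Grm4, Grm5, Grm6, Grm7 or Grm8, which gave 10 of 41012 probes and 19 of 43379 spots for 7 genes. The heroin group held 6 male rats of 4 months that had self-administered heroin intravenously in daily sessions, and the control group held 5 male rats of the same age that received saline each time a matched rat took heroin. Both groups carried a jugular catheter, spent 14 days in enforced abstinence and then went through an extinction session in the self-administration chamber. The tissue was taken after it, so abstinence, context and the holding of an extinction session are common to both groups. A single-colour Agilent array with probes of 60 nucleotides was hybridised for each rat. The strain was not given in the sources used here. Saline rats never received heroin, so the groups differ in the drug and in control over its delivery. They also differed in behavior, as the paper reports significantly more goal-directed responding in heroin rats during the extinction session. The part of this behavior in the values below was not tested.

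Metabotropic glutamate receptors are G protein-coupled receptors that tune glutamate and GABA synapses over a slower time scale than the ion channel receptors. Group I receptors, represented here by Grm5, couple to Gq and phospholipase C and sit mainly on postsynaptic membranes, where Homer proteins link them to intracellular calcium stores. Group II (Grm2 and Grm3) and group III (Grm4, Grm6, Grm7 and Grm8) couple to Gi and Go, lower adenylyl cyclase activity and mostly restrain transmitter release, while Grm3 is also abundant in astrocytes and Grm6 acts in the retina, in ON bipolar cells. Group II receptors in the prefrontal cortex and its projections are widely studied in drug seeking.

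The probe sequences bear on which transcript forms each value can stand for. Those of Grm5, Grm2, Grm7 and Grm8 are shown because the results below turn on them. Grm7 and Grm8 each have a probe annotated to the reference transcript and a probe annotated to a variant with another end of the coding sequence, called 7b and 8b. Positions are those of the array files in the rat build rn3, in which Grm5 lies at chr1:144555235-144555294 on the plus strand and Grm2 at chr8:111857868-111857927 on the minus strand. The reference probe of Grm7 spans chr4:147333218-147446056, a stretch of 112839 bases for a probe of 60, so it crosses an intron, and the 7b probe lies further along the plus strand at chr4:147451535-147451594. The Grm8 probes span chr4:54207890-54214387 (reference) and chr4:54207858-54214300 (8b) on the minus strand, and also cross an intron. Capitals mark the 18 bases that the Grm8 probes share, which end the reference probe and stand after the first 10 bases of the 8b probe.
Grm5, A_44_P360563: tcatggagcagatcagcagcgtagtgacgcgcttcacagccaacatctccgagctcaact
Grm2, A_43_P15751: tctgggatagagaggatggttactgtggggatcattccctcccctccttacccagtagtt
Grm7 reference, A_43_P12487: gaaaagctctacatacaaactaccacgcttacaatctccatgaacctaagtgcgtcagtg
Grm7 7b, A_44_P445254: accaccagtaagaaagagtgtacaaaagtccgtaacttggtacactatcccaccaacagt
Grm8 reference, A_44_P186818: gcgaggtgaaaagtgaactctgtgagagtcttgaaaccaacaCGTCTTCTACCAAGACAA
Grm8 8b, A_44_P323320: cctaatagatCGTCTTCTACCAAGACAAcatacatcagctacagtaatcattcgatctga

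The Grm8 probes therefore read partly the same bases. In the 8b probe 10 bases stand before the shared run and 32 after it, and the 8b probe ends 32 bases beyond the reference probe. These 32 bases follow the shared run directly in the genome. A reference transcript that reads on there matches 50 bases of the 8b probe, so that probe is not specific to 8b. Grm3 was read at chr4:22117749-22117808, Grm4 at chr20:5628162-5628221, and Grm6 at chr10:36437467-36437526 (reference) and chr10:36430725-36430784 (annotated to a putative truncated form). The Grm5 probe was printed 10 times on each array and each of the other probes once. Which exon or untranslated region the probes lie in was not analysed here.

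Of 50 cell type marker genes with a probe, 47 were detected on all 11 arrays, among them all 7 neuronal, 6 interneuron, 7 astrocyte and 7 oligodendrocyte genes. The array of heroin replicate 6 stood apart. Its median signal was 43.0 against 58.3 to 83.6 on the other arrays, its median correlation with the other arrays was 0.968 against 0.976 to 0.988, and 4 marker genes, of neurons (Camk2a), astrocytes (S100b), oligodendrocytes (Mbp) and microglia (Itgam), were more than 1 log2 unit lower in it than in the mean of the other heroin rats after quantile normalization. Of the 50 marker genes, 0 were more than 1 log2 unit higher in it. Others of the same types were higher by less, such as Syt1 (0.21), Gjb6 (0.85), Mog (0.47) and Aif1 (0.89), so the markers of a type did not move together. Because its array stood apart, the results below are given with and without this rat where it matters. On every scan that held both groups the saline array was in position 3 and the heroin array in position 4, so position and group cannot be told apart.

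None of the receptors differed between heroin and saline rats by the criteria of the study, an unadjusted p under 0.02 together with a change of at least 1.4-fold. Of the 10 probes, 8 were detected on all arrays and tested, and 0 of these 8 passed both criteria in limma, against 2.72% of the 25555 probes tested (694 probes). The study applied its thresholds with an unequal-variance test and reported a much shorter list. It also describes more saline arrays than the 5 available here, so these counts are not those of the study. With an unequal-variance test here, 308 probes passed, 0 of them receptor probes. At an unadjusted p under 0.05, 1 of 8 receptor probes passed, that of Grm2, against 18.5% of all tested probes, and after quantile normalization 0 of 8 passed, against 7.71%. In the main limma fit (50th-percentile scaling, no array weights) the adjusted p of the receptor probes ran from 0.264 to 0.886. Over the whole array 0 probes had an adjusted p under 0.05 in that fit, while 4723 had an unadjusted p under 0.05. Signals were scaled to each array's 50th percentile, under which the median of all tested probes stood at a log2 change of 0.18. After quantile normalization, which gives every array the same distribution of signals, that median was 0.01. The median change of the 8 receptor probes was 0.13 and -0.08 under these settings, so a change is given below under both. Of the 8 probes, 7 and 3 were higher in heroin, against 20114 and 13590 of all 25555 tested probes. No receptor probe had heroin and saline values that did not overlap. The share of all tested probes without overlap was not counted, so this only describes the values.

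**Figure D1:**
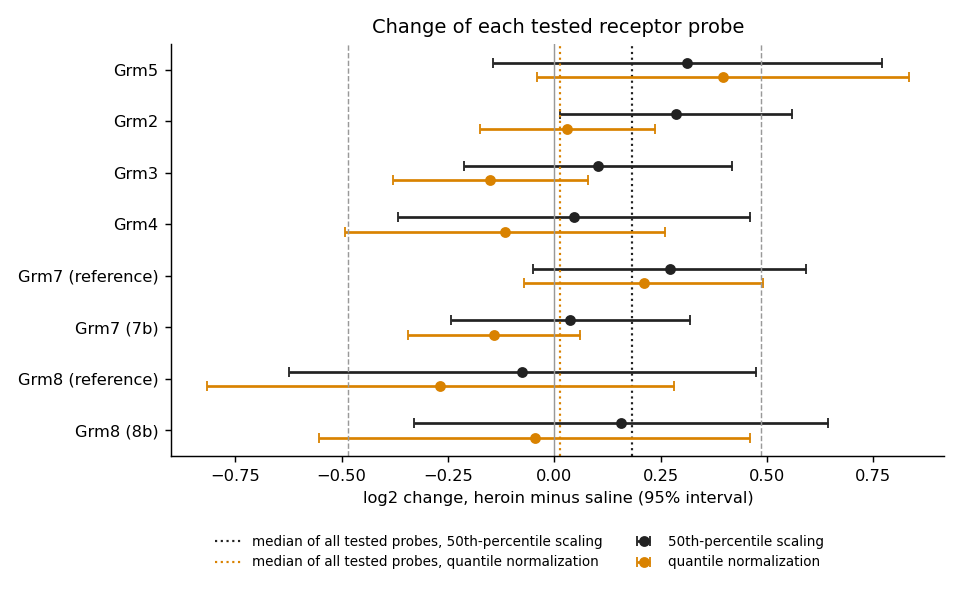
Log2 change (heroin minus saline) of the 8 receptor probes detected on all arrays, with 95% intervals, under 50th-percentile scaling (black) and quantile normalization (orange). Dotted lines are the medians of all tested probes, 0.18 and 0.01, and dashed lines mark a 1.4-fold change. Of the intervals, only that of Grm2 under 50th-percentile scaling leaves out 0.

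Grm5, the group I receptor, had the largest change of the 8 probes under 50th-percentile scaling and quantile normalization. It passed the criteria only without 1 rat, heroin replicate 6. The size of its change also followed the processing. Scaled to the 75th percentile its log2 change was 0.10 (SE 0.23), smaller in size than that of the Grm8 reference probe (-0.29). With normexp background correction it was 0.15 (SE 0.09). In saline rats its signal was 0.538, 0.619, 0.590, 0.533 and 0.745 array medians for replicates 2 to 6, an array median being the 50th percentile of that array's probes. In heroin rats it ran from 0.377 to 0.996 with a median of 0.822. Heroin replicates 1 to 4, at 0.810, 0.942, 0.996 and 0.834, lay above every saline rat, heroin replicate 5 at 0.718 lay among the upper saline values, and heroin replicate 6 at 0.377 was the lowest of all 11 rats.

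The log2 change of Grm5 was 0.31 (SE 0.21, 95% interval -0.14 to 0.77, limma adjusted p = 0.371), and 0.40 (SE 0.20, limma adjusted p = 0.671) after quantile normalization. The exact permutation test over the 462 divisions of the rats, two-sided, gave p = 0.242 and p = 0.104 in turn, where the smallest p it can give is 0.00433. Without heroin replicate 6 the change was 0.51 (SE 0.14, limma adjusted p = 0.210, exact permutation p = 0.0159), past both criteria, as 3.13% of tested probes then were. With quantile normalization and without this rat, a setting added after the data were seen, it was 0.57 (SE 0.12, limma adjusted p = 0.455, exact permutation p = 0.00794, the smallest that 10 rats allow), again past both criteria, as 1.61% of probes then were. With all rats kept and array weights, which pass 9.31% of probes, it was 0.43 (limma adjusted p = 0.0365) and fell short of 1.4-fold. With these weights 7862 of 25555 tested probes had an adjusted p under 0.05. Among them were Grm2 (0.32, limma adjusted p = 0.0373) and the Grm7 reference probe (0.46, limma adjusted p = 0.0203), both short of 1.4-fold. Under no other single omission did Grm5 pass, the change then running from 0.23 to 0.39.

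Grm5 was dim, at 0.377 to 0.996 array medians over all rats. The lowest signal scored as well above background ran from 0.210 to 0.309 array medians over the arrays. Grm5 therefore lies not far above the limit of measurement, as does Grm6 below. The 10 spots of the Grm5 probe show how precisely each array measured it. On the 10 other arrays all 10 spots were well above background, and the SD of their log2 signals ran from 0.09 to 0.26. On the array of heroin replicate 6, 7 of 10 spots were well above background. Over all 10 spots of that array the signals ran from 6.47 to 26.8 intensity units, and the SD of the log2 signals was 0.67. After quantile normalization this rat lay 1.06 log2 units below the mean of the other heroin rats for Grm5, and it was also the lowest of all 11 rats for Grm4, 7b and both Grm8 probes. The part of array quality in these values was not tested.

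Within the 5 scans that held a rat of each group, the heroin rat was higher for Grm5 in 4, by 0.43 to 0.81 on the log2 scale, and lower by 0.98 in the scan of replicate number 6. A second probe, A_44_P505968, is annotated to the 5b splice insertion and shares a transcript with the Grm5 probe, though the array lists it under a transcript identifier. Its log2 change was 0.10 (SE 0.17, exact permutation p = 0.558), and 0.08 after quantile normalization.

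**Figure D2:**
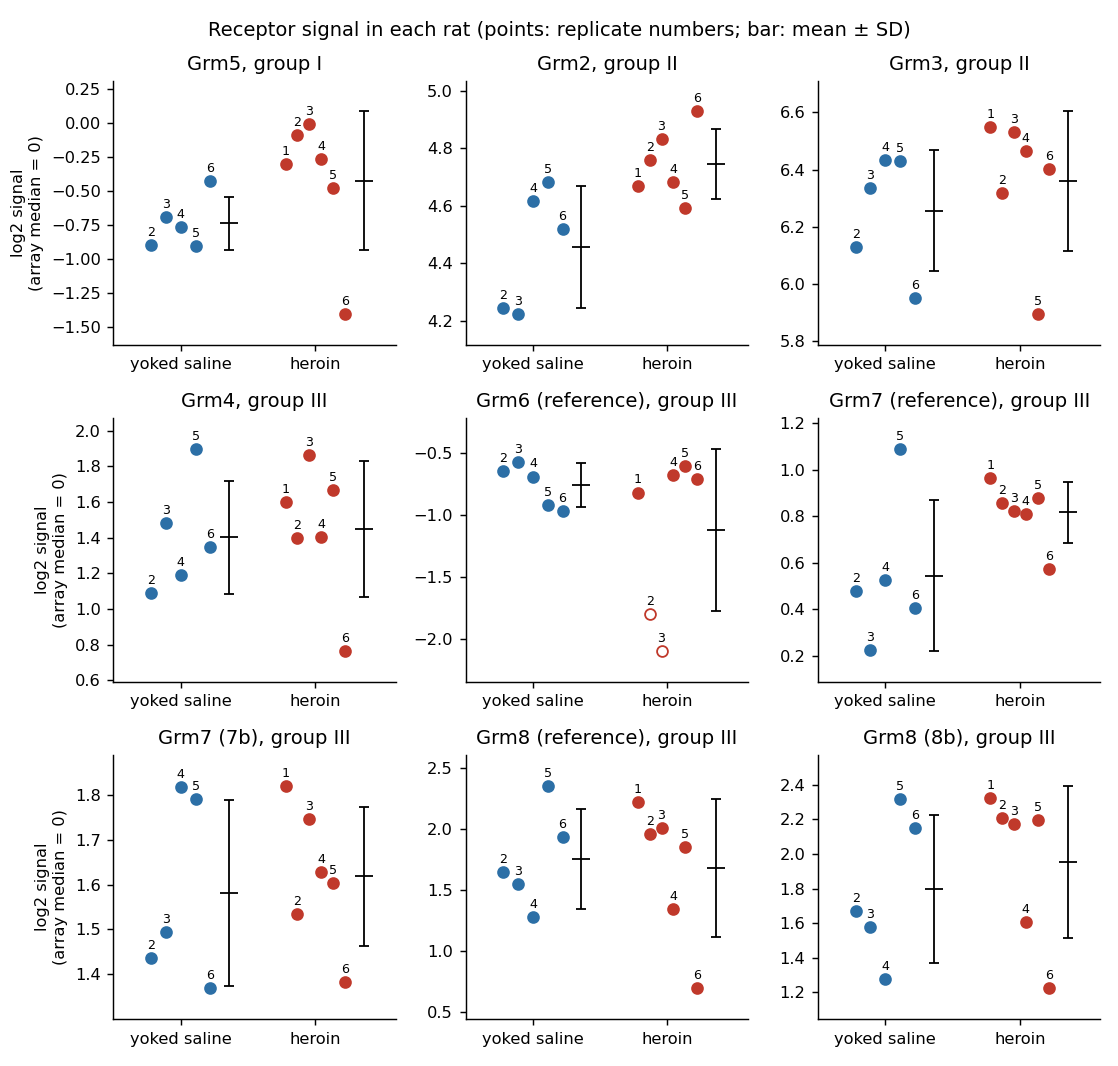
Signal of each receptor probe in each rat, on a log2 scale where 0 is the array's 50th percentile; numbers are replicate numbers, bars give mean ± SD, and open points are arrays on which the probe was not well above background. Heroin replicate 6 is the lowest heroin rat for Grm5, Grm4 and all 4 probes of Grm7 and Grm8, and the highest for Grm2.

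Among group II receptors, Grm2, a presynaptic autoreceptor, was on average higher in heroin rats, but the size of the difference followed the scaling. Its signal was 19.0, 18.7, 24.6, 25.7 and 22.9 array medians in saline replicates 2 to 6, and 24.1 to 30.5 with a median of 26.4 in heroin rats. Saline replicates 2, 3 and 6 lay below every heroin rat, and 4 of 6 heroin rats lay above every saline rat. The log2 change was 0.29 (SE 0.13, 95% interval 0.01 to 0.56, limma adjusted p = 0.264, exact permutation p = 0.0260). After quantile normalization the change was 0.03 (SE 0.09, 95% interval -0.17 to 0.24, exact permutation p = 0.675), and the heroin rat was the higher in 3 of 5 scans, against 4 of 5 with 50th-percentile scaling. With the replicate number as a block the change was 0.30 (SE 0.17, limma adjusted p = 0.458) and no longer had an unadjusted p under 0.05.

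Grm3, the group II receptor shared by neurons and astrocytes, turned its direction with the scaling. In saline rats it stood at 70.0, 80.7, 86.5, 86.3 and 61.9 array medians, and in heroin rats at 59.5 to 93.6 with a median of 86.4. Heroin replicate 5 was the lowest of all rats and lay apart from the other heroin rats, which began at 79.9. The log2 change was 0.10 (SE 0.15, exact permutation p = 0.476), and -0.15 (SE 0.11, 95% interval -0.38 to 0.08, p = 0.113) after quantile normalization, when the heroin rat was the lower in 5 of 5 scans, by 0.10 to 0.40. Under 50th-percentile scaling it was 0.03 without saline replicate 6 and 0.20 without heroin replicate 5. Another probe with Grm3 accessions, A_44_P146833, which the array names LOC689135, also had opposite signs under the scalings, 0.12 (SE 0.22) and -0.11 (SE 0.19).

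None of the group III receptors passed the criteria. Grm4, a presynaptic receptor with its main site in the cerebellum, stood at 2.13, 2.79, 2.29, 3.73 and 2.55 array medians in saline rats and at 1.70 to 3.64 with a median of 2.84 in heroin rats, and the groups overlapped through most of their range. Its log2 change was 0.05 (SE 0.19, 95% interval -0.37 to 0.46), and -0.12 (SE 0.17) after quantile normalization.

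Grm6, which is known from the retina, could be measured only in part. Its reference probe was well above background on 4 of 6 heroin and 5 of 5 saline arrays. In saline rats it gave 0.511 to 0.671 array medians, and in heroin rats 0.566, 0.623, 0.656 and 0.611 on the arrays of replicates 1, 4, 5 and 6. On the arrays of replicates 2 and 3 the probe was not well above background, at 0.287 and 0.234. The lowest signal scored as well above background ran from 0.210 to 0.309 array medians over the arrays, so the Grm6 values lie near the limit of measurement. With these arrays included and no filter on dim probes, the log2 change was -0.36 (SE 0.27, exact permutation p = 0.398), and it was -0.22 without heroin replicate 2 and -0.16 without heroin replicate 3. The probe of the truncated form was well above background on 0 of 11 arrays, and no fold is given. Of the bipolar cell markers Trpm1, Chx10, Pcp2 and Prkca, which the cortex can also express, 3 of 4 were detected on all arrays, so they set no cell type apart here.

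Grm7 is the receptor found at the active zone of many terminals, and its reference probe had a higher mean in heroin rats under both scalings, while the 7b probe did not. The reference probe read 1.39, 1.17, 1.44, 2.13 and 1.33 array medians in saline replicates 2 to 6 and 1.49 to 1.95 with a median of 1.79 in heroin rats. All saline rats but replicate 5, which was the highest of all 11, lay below every heroin rat. The log2 change was 0.27 (SE 0.15, 95% interval -0.05 to 0.59, limma adjusted p = 0.304, exact permutation p = 0.0909), and 0.21 (SE 0.13) after quantile normalization. Without saline replicate 5 it was 0.41, still short of 1.4-fold.

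The 7b probe read 2.58 to 3.53 array medians in saline rats and 2.61 to 3.53 in heroin rats, nearly the same range. Its log2 change was 0.04 (SE 0.13), and -0.14 (SE 0.09, exact permutation p = 0.0563) after quantile normalization, when the heroin rat was the lower in 5 of 5 scans.

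Grm8, a presynaptic receptor of high glutamate affinity, had values that overlapped between the groups for both probes. The reference probe read 3.14, 2.93, 2.43, 5.12 and 3.83 array medians in saline rats and 1.62 to 4.65 with a median of 3.75 in heroin rats, a range of 3.16-fold between the lowest rat, heroin replicate 6, and the highest, where the next lowest stood at 2.43. The 8b probe read 3.18, 2.99, 2.42, 4.98 and 4.44 in saline rats and 2.33 to 5.00 with a median of 4.55 in heroin rats. Heroin replicate 6 was the lowest rat for both probes, and saline replicate 5 and heroin replicate 1 were the highest for both. The log2 changes were -0.08 (SE 0.26, 95% interval -0.62 to 0.47) for the reference probe and 0.16 (SE 0.23, 95% interval -0.33 to 0.64) for 8b. After quantile normalization they were -0.27 (SE 0.25) and -0.05 (SE 0.23), and without heroin replicate 6 they were 0.12 and 0.30.

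**Figure D3:**
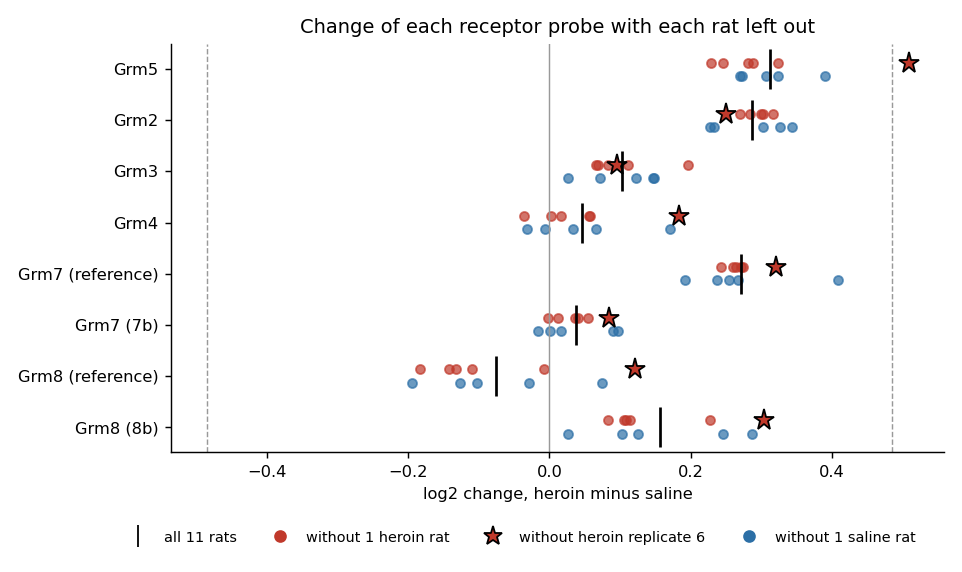
Log2 change (heroin minus saline) of the 8 tested receptor probes with all 11 rats (black bar) and with 1 rat left out at a time (points); the star is the value without heroin replicate 6, and dashed lines mark a 1.4-fold change. The star of Grm5, at 0.51, is the only point beyond a dashed line.

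Probes of the same receptor were compared by the log2 ratio of 2 probes on the same array, which does not depend on scaling by a constant. The ratio does not compare the amounts of the forms, since probes differ in brightness. The probes of a pair need not read separate forms, and the 8b probe is not specific to 8b. A changed ratio therefore does not show by itself that the forms moved apart. The comparison was chosen after the data were seen, for 4 pairs of probes. For Grm8, the ratio of 8b to reference was 0.02, 0.03, -0.01, -0.04 and 0.21 in saline replicates 2 to 6, and 0.10, 0.25, 0.16, 0.26, 0.35 and 0.53 in heroin replicates 1 to 6. Of the heroin rats, 4 of 6 lay above every saline rat, and all 6 lay above 4 of the 5 saline rats. The mean was 0.28 ± 0.15 (SD, n = 6) in heroin and 0.04 ± 0.10 (SD, n = 5) in saline rats, a difference of 0.23 (SE 0.08, exact permutation p = 0.0130, two-sided, adjusted p = 0.0519 over the 4 pairs).

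The Grm8 difference thus missed an adjusted p of 0.05. It was 0.22 after quantile normalization and 0.18 with normexp, and without any 1 of the rats it ran from 0.18 to 0.27, with exact permutation p between 0.00952 and 0.0286. The highest ratio belonged to heroin replicate 6, the rat with the lowest signal of both probes, and without it the difference was 0.18 (exact permutation p = 0.0238).

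For Grm7, the ratio of reference to 7b was -0.96, -1.27, -1.29, -0.70 and -0.96 in saline replicates 2 to 6 and -0.92 to -0.68 with a median of -0.81 in heroin rats, a difference of 0.23 (SE 0.12, exact permutation p = 0.0693, adjusted p = 0.139). Whether the reference probe of Grm7 also reads 7b transcripts was not tested, so this ratio cannot be read as the reference form against 7b. Of the saline rats, 4 of 5 lay below every heroin rat, and replicate 5 lay within the heroin range. The difference was 0.35 (exact permutation p = 0.0303) after quantile normalization, 0.16 (exact permutation p = 0.0390) with normexp and 0.32 (exact permutation p = 0.00952) without saline replicate 5, all before adjustment over the pairs. Without any other single rat it lay between 0.17 and 0.26, with exact permutation p from 0.0714 to 0.152. For Grm5 against the 5b probe the difference was 0.22 (SE 0.15, exact permutation p = 0.190, adjusted p = 0.254), and 0.32 without heroin replicate 6. For Grm3 against LOC689135 it was -0.01 (SE 0.20, exact permutation p = 0.922).

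**Figure D4:**
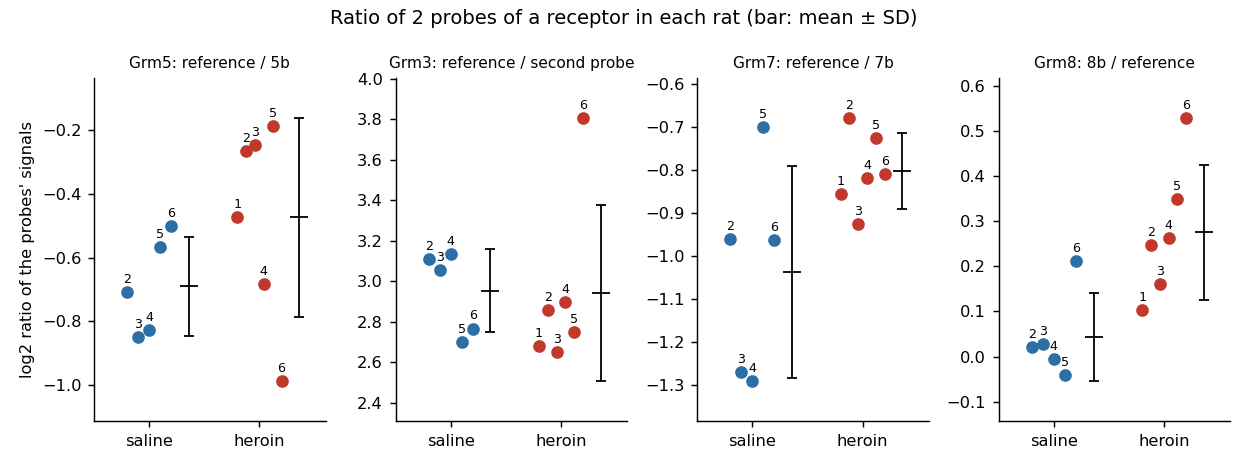
Log2 ratio of the signals of 2 probes of the same receptor in each rat; numbers are replicate numbers and bars give mean ± SD. For Grm8 all 6 heroin rats lie at 0.10 or above while 4 of the 5 saline rats lie at 0.03 or below; for Grm5 and Grm3 the point of heroin replicate 6 lies apart from the other heroin rats.

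The genes with the most similar pattern over the 11 rats were sought by the Pearson correlation of log2 signals after quantile normalization, among 7883 named probes, and serve as a description. For Grm3 they were Cask (r = 0.95), a scaffold of the presynaptic membrane, Kif5b (r = 0.94), a kinesin motor, and Aldoc (r = 0.94), an aldolase that marks astrocytes in the brain, with Spearman's rho of 0.77, 0.85 and 0.89. For Grm5 they were Ppm1a, Gnptg and Senp2 (r = 0.92 for each), and for Grm8 (8b probe) Sdccag8 and Cdipt (r = 0.94 and 0.93). For Grm4 they were Tmem111, Prdx3 and Nupl1 (r = 0.94, 0.94 and 0.93), for Grm2 Baalc, Terf2ip and Ptgfrn (r = 0.87, 0.83 and 0.82), and for Grm7 (7b probe) Cga, Pldn and Spa17 (r = 0.90, 0.89 and 0.87). Without the 2 rats farthest from the median of the receptor, these correlations were 0.61 to 0.90. Heroin replicate 6 was among those rats for Grm5, Grm4, Grm7 and Grm8.

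Among 84 listed genes that act with these receptors, 72 had a tested probe, and 4 were higher and 0 lower in heroin rats by both criteria, against 1.79% of all tested probes called higher and 0.927% called lower. The direction of calls over the array followed the scaling, with 457 probes higher and 237 lower here, 218 and 239 after quantile normalization, and 33 and 746 after scaling to the 75th percentile, when 0 of the 72 genes passed. Gnai1, a Gi alpha subunit through which group II and III receptors act, had a log2 change of 0.63 (SE 0.21, exact permutation p = 0.0303). Rgs2, which shortens Gq signaling, had 0.53 (SE 0.16, exact permutation p = 0.00866). Homer1, a scaffold of group I receptors, had 0.51 (SE 0.13, exact permutation p = 0.00433, the smallest possible), and Trpc1, a cation channel opened downstream of group I receptors, had 0.50 (SE 0.18, exact permutation p = 0.0216). The limma adjusted p was 0.263 for these 4 genes. After quantile normalization 1 of 72 passed both criteria, Gnai1 at 0.51 (exact permutation p = 0.0476), against 0.853% of all probes called higher, while Homer1 stood at 0.26, Rgs2 at 0.28 and Trpc1 at 0.26. With single rats left out the count of 4 became 1 without saline replicate 2 or 3 and 7 without saline replicate 5. The median log2 change of the 72 genes was 0.25, and 0.04 after quantile normalization, beside 0.18 and 0.01 for all tested probes.

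By role, 1 of 14 G protein subunits, 1 of 17 effectors of group I receptors, 0 of 14 effectors of group II and III receptors, 1 of 18 scaffolds and binding partners and 1 of 9 genes of desensitisation passed, all of them higher. The highest value was that of Homer2, at 0.65 (SE 0.33, exact permutation p = 0.143), which did not pass. The lowest values were those of Itpr2, an inositol trisphosphate receptor, at -0.22 (SE 0.21), Adrbk2, a receptor kinase, at -0.17 (SE 0.14), and Gng7, a G protein gamma subunit, at -0.10 (SE 0.21), none of which passed.

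**Figure D5:**
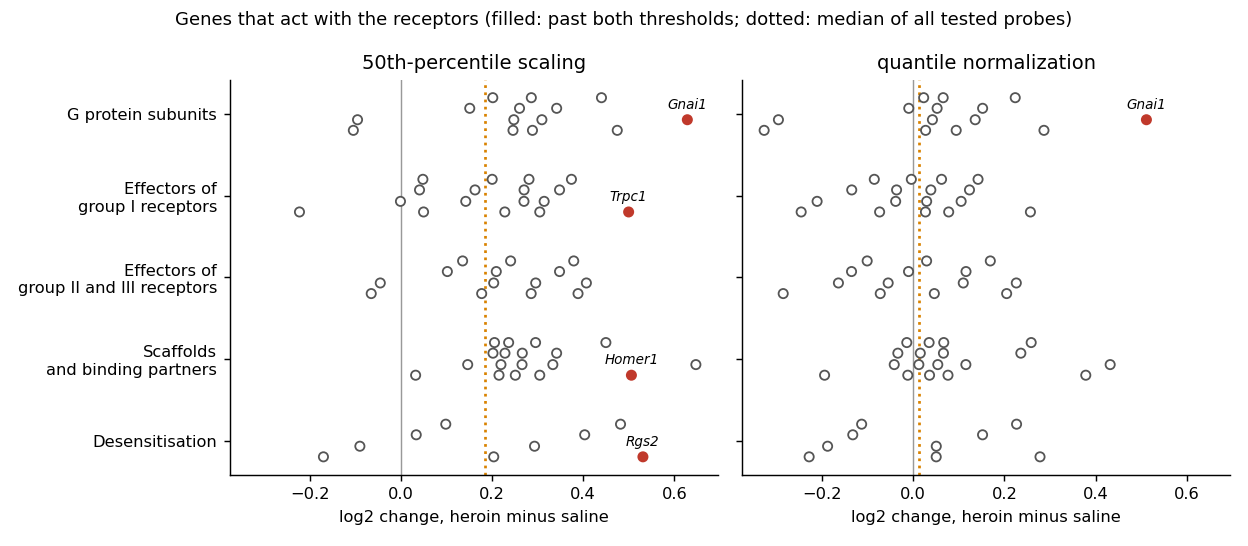
Log2 change (heroin minus saline) of the 72 tested genes that act with the receptors, by role, under 50th-percentile scaling (left) and quantile normalization (right); filled points passed both criteria and the dotted line is the median of all tested probes. The named points are Gnai1, Trpc1, Homer1 and Rgs2 on the left and Gnai1 alone on the right.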

How the data were processed

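The authors hybridised Cy3-labelled cRNA and deposited spot signal intensities from Feature Extraction (9.5.1.1 per the file headers), corrected for background. The authors also deposited relative values, each a ratio to the median of the probe, used as an alternative. Here control and marked spots were left out, intensities under 5 were set to 5, log2 was taken, spots were averaged per probe and each array was set to its 50th percentile. Probes were tested with limma 3.58.1 (R 4.3.3; two-sided, Benjamini-Hochberg over all tested probes) where at least 0.5 of their spots were well above background on all 11 arrays. Single probes were also tested by exact permutation (SciPy). The number of arrays limits the precision. The fit was tested on simulated data. The members and gene lists were chosen with earlier results of these data known. Genes most like each receptor were the 3 with the highest correlation (1 of them is not reported here; names ending in predicted were left out, a choice made after the data were seen), and pathway genes named are those past both criteria and the 3 highest and lowest. Replicates are single rats, as the labels number them.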

Additional observations from a re-analysis of the deposited data

Results flagged for a closer look

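In 4 of 26 checks, each of a probe or probe ratio within the heroin or saline group, 1 rat lay far from the others. For a single check chance gives about 1 in 20. The checks share the same rats and some share probes, so they are not independent and the count cannot be set against that rate. For the Grm5 probe, the log2 signal of heroin replicate 6 was -1.41 against -0.48 in the nearest heroin rat, a gap of 0.663 of the range of the group. For Grm3, heroin replicate 5 stood at 5.89 against 6.32 in the nearest heroin rat, a gap of 0.65 of the range. The log2 ratio of the Grm3 probe to the LOC689135 probe was 3.81 in heroin replicate 6 against 2.90 in the nearest heroin rat, a gap of 0.786 of the range. The log2 ratio of the Grm8 probes, 8b to reference, was 0.21 in saline replicate 6 against 0.03 in the nearest saline rat, a gap of 0.73 of the range.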

How the results depend on the processing

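The count of 0 receptor probes past both criteria held under every alternative but the 2 without heroin replicate 6, which each gave 1, that of Grm5, and ran from 0 to 1 with single rats left out. Grm2, Grm5, Grm6 and the reference probe of Grm7 kept their sign under all alternatives run, but not their size. At the 75th percentile Grm5 was 0.095, Grm2 0.069 and the Grm7 reference probe 0.054, while Grm6 was -0.58. Scaling to the 75th percentile turned Grm3 to -0.11, Grm4 to -0.17, 7b to -0.18 and 8b to -0.061, and gave 0 pathway genes. Quantile normalization turned them to -0.15, -0.12, -0.14 and -0.045, with 457 probes and 1 pathway gene past both criteria; with the replicate block as well these were -0.18, -0.14, -0.17, -0.11, 410 and 1; and without heroin replicate 6 it gave -0.13 for Grm3, -0.10 for 7b, 423 probes and 0 pathway genes. The Grm8 reference probe turned to 0.26 with array weights (2380 probes, 9 pathway genes) and to 0.041 with probes of a gene averaged. Normexp gave 123 probes and 1 pathway gene, the methods' unmoderated test 308 and 2, no filter on dim probes 1560 probes, and detection in 1 group 1067. With single rats left out, probes past both criteria ran from 345 (without saline replicate 2; 394 without saline replicate 3) to 2356 (without saline replicate 5), pathway genes from 1 to 7, Grm3 from 0.027 to 0.20, Grm6 from -0.46 to -0.16, Grm4 from -0.036 to 0.18, 7b from -0.016 to 0.097, Grm8 reference from -0.19 to 0.12 and the Grm3 probe ratio from -0.19 to 0.045. The causes were not tested.

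Rats with the same replicate number shared a scan. Their deviations from the group means correlated at 0.38, -0.13, 0.35, 0.02 and -0.24 for numbers 2 to 6. The labels do not say whether the number marks yoked rats, and these correlations cannot decide it. The number was therefore not taken as a pairing in the main fit. With the replicate block, 806 probes passed both criteria, the 7b change was -0.0026, Grm5 was 0.29 and Grm2 0.30. No receptor probe passed both criteria with it, and Grm2 lost its unadjusted p under 0.05. The files give scans and no slide, so the scan stood for the slide.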
